A study of Mus musculus with 12 samples.

Results

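Interferon-stimulated genes are the genes a cell switches on when it senses interferon, and 34 of them were followed here in mouse splenic B cells. They were chosen by symbol from the 24982 gene symbols in the deposited files, and all 34 were found. The samples were polyadenylated RNA of B lymphocytes isolated from spleens of mice 6 weeks old, with 4 libraries, called biological replicates in the labels, in each of 3 groups: wild-type mice (WT, C57BL/J6), Eμ-Myc transgenic mice, and Eμ-Myc; PRPS2 KO mice, which carry the same transgene and lack PRPS2. The transgene joins Myc to the immunoglobulin heavy-chain enhancer Eμ, so Myc is raised in the B lineage. PRPS2 belongs to the synthetases that supply phosphoribosyl pyrophosphate, from which nucleotides are built. The strain background of the transgenic mice, the sexes and the purity of the isolated cells are not given in the sources used here. The study asked which gene programmes Myc deregulates and whether loss of PRPS2 touches them.

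Interferons are secreted proteins that bind receptors on the cell surface and act through the JAK kinases. Type I interferon leads to the assembly of ISGF3, a complex with STAT2 and IRF9 that binds the interferon-stimulated response element (ISRE), whereas interferon gamma acts through the gamma-activated site (GAS). The genes switched on include sensors of foreign nucleic acid, factors that block viral translation or assembly, and regulators that feed back on the pathway, and many cells keep a low tonic level of them without infection.

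The start regions of these genes are shown first, because such factors commonly bind there. The windows are RefSeq promoter sequences of the GRCm38.p6 build (mm10), from 250 bases before to 50 after an annotated start, and 25 of the 34 genes had one. The ISRE core was searched as GAAANN directly followed by GAAA, the GAS as TTCNNNGAA and the E-box bound by Myc and its partner Max as CACGTG, each on both strands. Of the 25 genes, 13 (52%) held an ISRE core, against 3.99% of all 27025 genes in the table. A GAS was found in 7 of the 25 (28%, against 9.55% of all genes) and the E-box in 1 (4%, against 8.09%), which was Trim25. The table holds no window for Dhx58, Zbp1, Oas2, Mx1, Mx2, Usp18, Parp9, Parp14 and Rtp4. Neighbouring ISRE matches can share bases, and in Bst2 a GAS match also overlaps the first ISRE match. A match is a description of letters and not a measured binding site.

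The 140 bases before the start are printed 5′ to 3′ for genes that stand for the main patterns below. Isg15 and Ifit1, which fell in Eμ-Myc, and Bst2, which was not called, carry ISRE cores (capitals). The Oas1a window ends in the annotated gene, since an alternative start lies upstream.
Isg15, chr4:156200819-156200958, minus strand: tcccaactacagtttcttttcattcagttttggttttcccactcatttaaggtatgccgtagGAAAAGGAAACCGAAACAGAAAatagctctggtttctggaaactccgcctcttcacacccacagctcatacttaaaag
Ifit1, chr19:34640749-34640888, plus strand: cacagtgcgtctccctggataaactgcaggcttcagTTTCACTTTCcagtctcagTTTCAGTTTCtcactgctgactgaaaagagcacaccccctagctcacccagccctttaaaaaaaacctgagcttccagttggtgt
Oas1a, chr5:120907526-120907665, minus strand: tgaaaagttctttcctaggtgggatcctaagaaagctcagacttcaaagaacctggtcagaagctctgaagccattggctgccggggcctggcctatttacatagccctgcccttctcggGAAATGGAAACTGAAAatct
Bst2, chr8:71537473-71537612, minus strand: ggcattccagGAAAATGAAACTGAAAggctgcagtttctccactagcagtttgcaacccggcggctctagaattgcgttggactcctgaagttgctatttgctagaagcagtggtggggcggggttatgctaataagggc
Irf1 carries a GAS (capitals) and no ISRE core, and Trim25 carries the E-box (capitals) and neither of the others.
Irf1, chr11:53769874-53770013, plus strand: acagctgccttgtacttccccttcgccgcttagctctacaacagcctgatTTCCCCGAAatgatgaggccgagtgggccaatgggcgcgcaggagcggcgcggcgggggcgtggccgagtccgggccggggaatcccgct
Trim25, chr11:88999263-88999402, plus strand: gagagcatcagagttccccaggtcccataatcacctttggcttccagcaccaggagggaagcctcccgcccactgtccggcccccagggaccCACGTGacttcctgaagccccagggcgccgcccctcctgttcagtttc

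**Figure D1:**
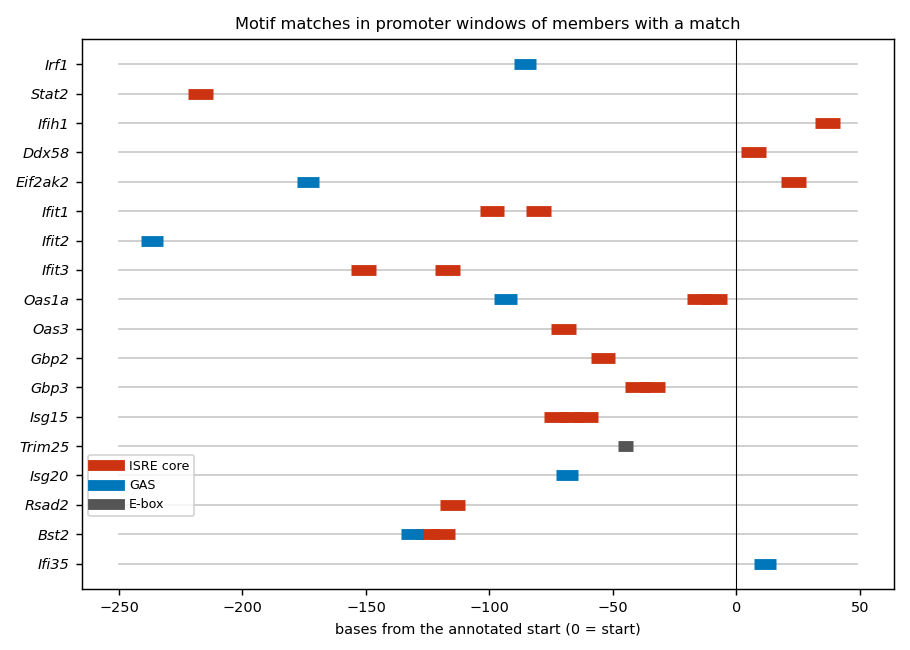
Position of ISRE core, GAS and E-box matches on either strand, in bases from the annotated start, in the promoter windows of the interferon-stimulated genes that hold at least 1 match. Of the 20 ISRE matches, 17 begin before the start, and they lie between -222 and 41.

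Values are the read coverage of a gene as deposited, divided here by 1 scaling factor per library, and are called scaled coverage. Library sums of deposited coverage lay between 1277305.5 and 1885768.9 and read numbers are unknown, so errors are SDs over the 4 libraries of a genotype. Both engineered genes checked the labels. Myc averaged 272 ± 52.8 for WT, 1915 ± 311 for Eμ-Myc and 2279 ± 1042 for the knockout group (Eμ-Myc; PRPS2 KO), and Prps2 averaged 125 ± 19.8, 246 ± 36.5 and 17.1 ± 0.857 (SD, n = 4 each). All 8 pan-B-cell markers, among them Cd79a, were above 1 in all 12 libraries, and so were all 12 myeloid markers.

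Interferon-stimulated genes were lower in Eμ-Myc B cells than in WT. Of the 34 genes, 33 had enough coverage to be tested (1 or more, after scaling, in 4 or more of the 8 libraries). In limma 28 were called lower and 0 higher, at a two-sided p below 0.05 after Benjamini-Hochberg adjustment over the 12723 genes tested. Across all genes 55.1% were called, 24.7% lower and 30.4% higher. The median log2 fold change of the 33 genes was -1.01, against -0.01 for all genes tested. All 4 Eμ-Myc libraries lay below all 4 WT libraries in 24 of the 33 genes (22.8% of all genes) and above them in 1, Trim25 (28.7% of all genes). With all 12 libraries in one fit, which pools the spread of the 3 genotypes, 13 of the 28 calls were left at unchanged fold changes. The 15 that did not pass there were Irf7, Ifih1, Dhx58, Zbp1, Ifit3, Oas1a, Oas3, Oasl2, Mx1, Mx2, Gbp2, Gbp3, Isg15, Rsad2 and Xaf1, with limma adjusted p from 0.0535 (Dhx58) to 0.254 (Gbp3). In bulk RNA of a cell population, fewer cells of a type and less RNA per cell cannot be told apart.

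**Figure D2:**
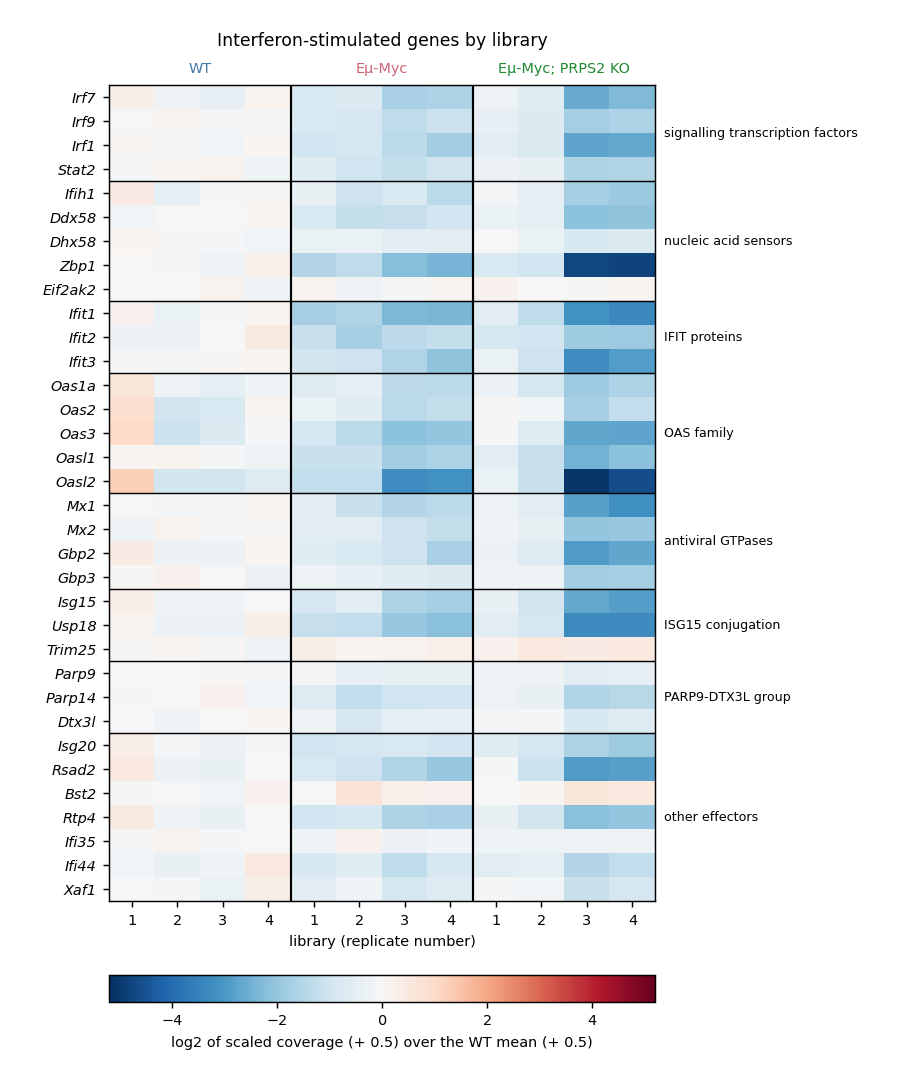
Log2 ratio of scaled coverage (+ 0.5) to the WT mean (+ 0.5) for the 34 interferon-stimulated genes (rows, by role) in the 12 libraries (columns, by group and replicate number), with blue below and red above the WT mean. Most rows are blue in all 4 Eμ-Myc libraries and darkest in libraries 3 and 4 of Eμ-Myc; PRPS2 KO, whereas Eif2ak2, Trim25, Bst2 and Ifi35 stay near or above the WT colour.

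The 4 signalling transcription factors among these genes all fell. Irf7, which amplifies interferon production, had a scaled coverage of 398, 289, 243 and 371 in WT libraries 1 to 4 and of 185, 196, 101 and 108 in Eμ-Myc libraries 1 to 4. Every Eμ-Myc library was below every WT library, and the log2 fold change was -1.18 (SE 0.25, limma adjusted p 0.00381, and 0.0666 with all 12 libraries in one fit). Irf9, the DNA-binding part of ISGF3, held 347, 375, 315 and 326 in WT and 198, 184, 137 and 159 in Eμ-Myc. That is a tight pair of groups without overlap, with a log2 fold change of -1.01 (SE 0.13, adjusted p 0.000162).

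Irf1, an activator that interferon gamma induces and whose promoter carries the GAS shown above, had 411, 345, 339.6 and 395 in WT and 181, 197, 142 and 106 in Eμ-Myc. The groups did not overlap, at -1.28 (log2 fold change, SE 0.18, limma adjusted p 0.000359). Stat2, the ISGF3 subunit that carries the activation domain, had 50.2, 58.5, 62.4 and 45.7 in WT and 34.6, 26.5, 22.8 and 27.5 in Eμ-Myc. Its libraries also separated fully, at -0.95 (SE 0.15, adjusted p 0.000647). The means of the 4 factors in Eμ-Myc lay between 42% and 51.4% of their WT means.

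Of the 5 nucleic acid sensors, 4 fell. Zbp1, which senses nucleic acid in the Z conformation and can trigger cell death, went from 88.8, 86.3, 74.5 and 107 in WT to 30.9, 35.5, 18.8 and 16.4 in Eμ-Myc. No library overlapped, and the log2 fold change was -1.85 (SE 0.24, limma adjusted p 0.000225, and 0.0909 with all 12 libraries in one fit). Ddx58, which encodes the RNA sensor RIG-I, fell by 1.06 on the log2 scale, from 62.2 ± 4.58 to 29.8 ± 4.38. Ifih1, which encodes the related sensor MDA5, fell by 0.88, and Dhx58, which encodes their regulator LGP2, by 0.46. Eif2ak2 encodes PKR, the kinase that stops translation on double-stranded RNA, and was not called. Its coverage was 24.8 ± 2.62 in WT and 25.2 ± 3.17 in Eμ-Myc, a log2 fold change of 0.02 with a 95% interval from -0.28 to 0.32, and its sign turned with the scaling.

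The IFIT proteins bind foreign RNA and hold back its translation, and all 3 of their genes fell. Ifit1 had 19.6, 13.3, 15.6 and 18.9 in WT and 4.73, 5.37, 2.98 and 2.82 in Eμ-Myc. It had the largest decrease of the 33 genes, -1.99 on the log2 scale (SE 0.23, limma adjusted p 0.000101). Ifit3, another member of the family, had 30.2, 29.7, 33.2 and 35.7 in WT and 16.2, 15.2, 10.7 and 7.21 in Eμ-Myc. The groups lay apart, and the log2 fold change was -1.41 (SE 0.23, adjusted p 0.000789, and 0.0545 with all 12 libraries in one fit). Ifit2 fell by 1.34. These genes sit together on chromosome 19, and how reads shared with their close copies were assigned is not given in the sources used here.

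The OAS enzymes make oligoadenylates that activate RNase L, and 4 of the 5 family genes fell. Oasl1, an OAS-like protein that restrains Irf7 translation, had 83, 87.6, 73.9 and 63.4 in WT and 34.6, 34, 21.4 and 24.3 in Eμ-Myc. It separated fully at -1.43 (SE 0.18, limma adjusted p 0.000153). Oasl2, its neighbour on chromosome 5, had 232, 51.1, 50.2 and 61.6 in WT and 40.7, 40.4, 9.96 and 10.8 in Eμ-Myc. WT library 1 stood far above the other WT libraries, yet all Eμ-Myc libraries were below all WT libraries. The log2 fold change of Oasl2 was -1.89 (SE 0.64, adjusted p 0.0321), and without WT library 1 it was -1.37 with an adjusted p of 0.0521. The call was also lost without WT library 4 (0.0532), Eμ-Myc library 3 (0.0914) or 4 (0.0978) and with all 12 libraries in one fit (0.148), the highest of a range from 0.00295 over all settings.

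In the OAS genes proper 2 of 3 were called. Oas1a fell by 0.92 and Oas3 by 1.39 on the log2 scale, and both calls were lost without Eμ-Myc library 3 (adjusted p 0.0603 and 0.0784) or 4 (0.0573 and 0.0741), that of Oas3 also without WT library 4 (0.0604). With all 12 libraries in one fit they had an adjusted p of 0.0578 and 0.0931. Oas2 had 79.9, 22.1, 25.3 and 48 in WT and 33.9, 27.8, 16.1 and 18.1 in Eμ-Myc. Its groups overlapped and it was not called, at -0.73 with a 95% interval from -1.67 to 0.21 (limma adjusted p 0.163).

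The antiviral GTPases fell in 4 of 4 genes. Mx1 fell by 1.17 and Mx2 by 0.86; both encode dynamin-like proteins and are annotated as transcribed pseudogenes in this reference strain. The guanylate-binding protein genes Gbp2, down by 1.01, and Gbp3, down by 0.50, serve defence against pathogens inside the cell. Gbp3 was at 187 ± 26.7 in WT and 132 ± 19.4 in Eμ-Myc, and its highest Eμ-Myc library (157) was above its lowest WT library (152).

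In the ISG15 conjugation group 2 of 3 genes fell. Usp18, which removes ISG15 from proteins and damps the interferon receptor, had 30.2, 21.5, 21.9 and 33.7 in WT and 11.3, 10.9, 6.37 and 5.52 in Eμ-Myc. The groups lay well apart, at -1.63 (SE 0.26, limma adjusted p 0.000655). Isg15, the ubiquitin-like modifier itself, went from 65.2 ± 12.7 to 29.9 ± 11.5, a log2 fold change of -1.17 (adjusted p 0.00445, and 0.0774 with all 12 libraries in one fit). Trim25, a ubiquitin ligase that activates RIG-I, had 65.4, 66.3, 65 and 52.1 in WT and 77.6, 67.9, 71.2 and 74.9 in Eμ-Myc. All its Eμ-Myc libraries were above all WT libraries, but the log2 fold change of 0.23 was not called (95% interval -0.01 to 0.47, adjusted p 0.0928).

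Parp9, Dtx3l and Parp14 encode ADP-ribosyltransferases and a ubiquitin ligase partner and lie in 1 cluster on chromosome 16, where all 3 fell, by 0.32, 0.54 and 0.99. Parp9 and Dtx3l overlap on opposite strands, and whether strand was used in making the coverage is not given in the sources used here. The call of Parp9 was lost without WT library 2 (adjusted p 0.0623) or 3 (0.0701) and without Eμ-Myc library 3 (0.0764) or 4 (0.0726), in a range of 0.00141 to 0.0764 over all settings.

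Among the other effectors, 4 of 6 tested genes fell. Rsad2 (viperin, which makes a chain-terminating nucleotide) fell by 1.3, Rtp4, a receptor transporter protein with antiviral activity, by 1.25, and Xaf1, a promoter of apoptosis, by 0.57. Isg20, a nuclease that degrades RNA, had 129.9, 98.8, 81.8 and 96.8 in WT and 49.8, 55.2, 58.2 and 50.7 in Eμ-Myc, at -0.91 (SE 0.14, limma adjusted p 0.000554). All Isg20 values in Eμ-Myc were below all in WT. The call of Xaf1 was lost without WT library 4 (adjusted p 0.0543), Eμ-Myc library 3 (0.0662) or 4 (0.0564), and with all 12 libraries in one fit (0.0829). Bst2 (tetherin, which holds budding virus on the cell) had 137, 143, 130.2 and 166 in WT and 147, 229, 171 and 169 in Eμ-Myc. Its groups overlapped, and its log2 fold change of 0.30 was not called (95% interval -0.03 to 0.62), although it passed without Eμ-Myc library 1 (0.39, adjusted p 0.0488) and with library quality weights (adjusted p 0.0168), in a range of 0.0168 to 0.424 over all settings. Ifi35, an interferon-induced leucine zipper protein, was at 106 ± 11.3 and 98.1 ± 17.2 and was called with library quality weights alone (-0.26, limma adjusted p 0.0443). Ifi44, between 0.111 and 2.01 in the 12 libraries, was too low to pass the filter. With no filter Ifi44 was tested too, and 29 of 34 genes were called lower while the calls of the other 33 did not change.

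**Figure D3:**
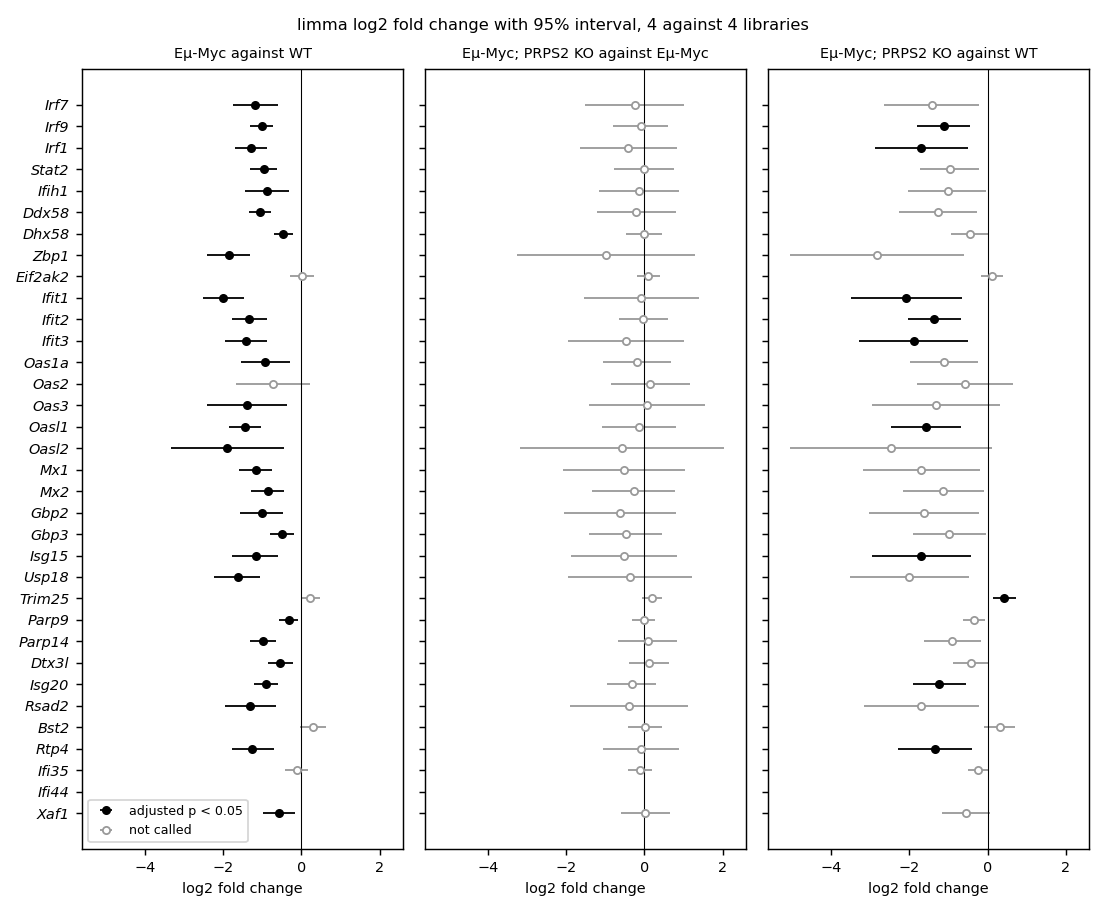
Log2 fold change (x axis) of each interferon-stimulated gene from limma with its 95% interval, 4 against 4 libraries, in the 3 comparisons; filled points passed an adjusted p of 0.05. In Eμ-Myc against WT 28 points are filled and lie below 0, against Eμ-Myc no knockout point is filled, and in the knockout group against WT 10 are filled over wider intervals.

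Genes with and without an ISRE core at the start both fell. Of the 13 genes with an ISRE core 11 were called lower, with a median log2 fold change of -1.01, and the others were Eif2ak2 and Bst2. Of the 11 tested genes whose window holds no ISRE core 9 were called lower, also with a median of -1.01, and the others were Trim25 and Ifi35. Of the 9 genes for which RefSeq gave no window, 8 were called lower. Over all genes tested in Eμ-Myc against WT, 24.7% were called lower and the median log2 fold change was -0.01. The counts by window are a description that misses motifs outside the windows, and the difference between them was not tested.

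PRPS2 loss gave no called change in these genes within Eμ-Myc. Of the 33 genes tested 0 were called, and 0 had an unadjusted p under 0.05 in limma, where 0.00797% of all 12551 genes were called (1 gene, Prps2) and 0.964% had such a p. The median log2 fold change was -0.14, against -0.03 for all genes, and the libraries of both groups overlapped in all 33 genes (over all genes, 0.765% lay wholly above and 0.765% wholly below). The sign of that median depended on which knockout library was left out: leaving out library 1, 2, 3 or 4 gave -0.48, -0.28, 0.08 and 0.04. It was -0.06 to -0.21 when 1 Eμ-Myc library was left out. With limma's library quality weights the median was -0.75 and 26 were called, 24 lower and 2 higher; that fit gave the knockout libraries 1 to 4 weights of 0.0817, 0.129, 3.2 and 7.76 and called 7459 of all genes.

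The knockout libraries themselves lay far apart. Zbp1, named because its change of -0.98 was the largest in this comparison and chosen after its values were seen, had 50.8, 44.5, 2.89 and 2.66 in knockout libraries 1 to 4. Libraries 1 and 2 were above all 4 Eμ-Myc libraries, which held 16.4 to 35.5, and libraries 3 and 4 were below all of them. The 95% interval of its log2 fold change ran from -3.25 to 1.3. Irf7 showed the same order, with 267, 212, 52 and 66.3, as did Irf1, with 246, 219.9, 54.9 and 58.4. For Irf7 the interval of the knockout difference, -1.53 to 1.02, holds both no change and a fall as large as that of Eμ-Myc against WT.

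The same order held for the remaining factors, Irf9 with 254, 206, 101 and 113 and Stat2 with 43.4, 40.8, 17.4 and 17.8. Oasl2 had the widest spread, with 78.2, 43.7, 2.44 and 3.55, and Ifit1 had 11.5, 6.53, 1.44 and 1.22. In each of these 4 genes all Eμ-Myc libraries lay below knockout libraries 1 and 2 and above libraries 3 and 4. For Usp18 the knockout libraries held 18.1, 13.8, 2.22 and 2.33, for Oasl1 51.9, 33.2, 13.8 and 17.1, and for Ifit3 25, 14.8, 3 and 3.88.

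The 3 genes with the smallest p in this comparison were Trim25, Gbp3 and Isg20, and none passed. Trim25 had 72, 89.3, 84 and 89.3 in the knockout group, at 0.19 against Eμ-Myc (SE 0.11, limma p 0.12, adjusted p 1.0). Gbp3 had 165, 157, 53.8 and 55.1 there, against 157, 139, 119.7 and 114 in Eμ-Myc (log2 fold change -0.48, p 0.265). Its knockout libraries 1 and 2 lay near the highest Eμ-Myc value and libraries 3 and 4 below the lowest. Isg20 had 66.3, 55.2, 32.1 and 27.7 (-0.33, p 0.268).

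**Figure D4:**
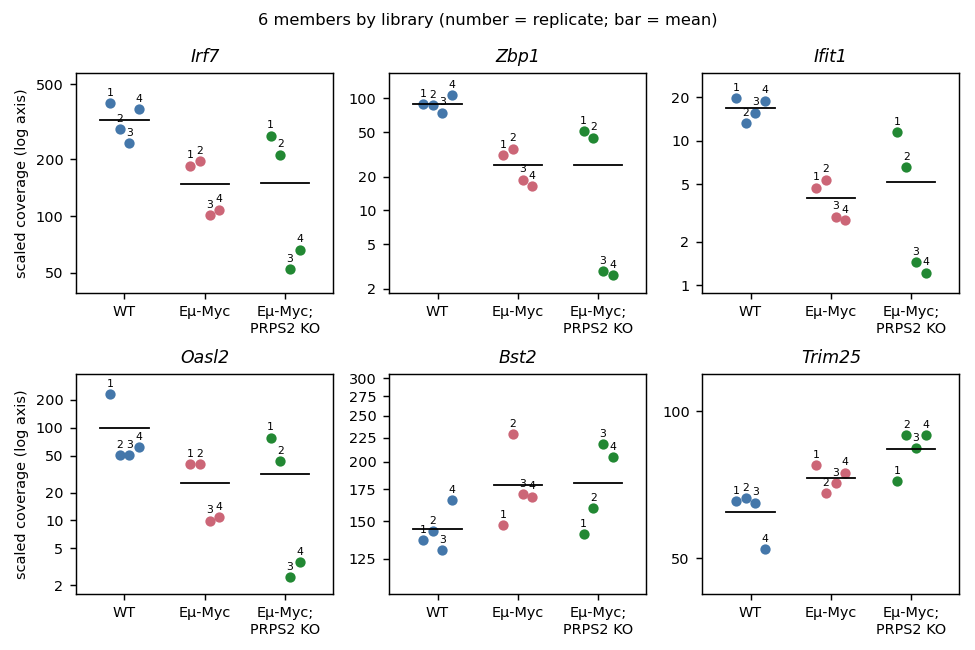
Scaled coverage (y axis, log scale) of 6 interferon-stimulated genes in each library, with the replicate number beside each point and a bar at the group mean. In Irf7, Zbp1, Ifit1 and Oasl2 the knockout libraries 1 and 2 lie far above libraries 3 and 4, whereas Bst2 has the reverse order and Trim25 stays between 52.1 and 89.3 in all 12 libraries.

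Over all 33 genes the median level of a library, as a share of the WT mean, was 61.7%, 54.2%, 40.3% and 41.3% in Eμ-Myc libraries 1 to 4 and 82%, 65.1%, 26% and 24.9% in knockout libraries 1 to 4. WT libraries held 92.7% to 105%. Knockout library 1 was the highest of its group in 31 of the 33 genes (32.4% of all genes), and libraries 1 and 2 were both above 3 and 4 in 29 (42.4% of all genes). The exceptions to the second pattern were Eif2ak2, Trim25, Bst2 and Ifi35, the same 4 genes that, with Oas2, were not called in Eμ-Myc against WT. In Eμ-Myc, libraries 1 and 2 were both above the others in 21 (22.5% of all genes).

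The spread between libraries was therefore uneven. The median SD of log2 coverage over the 33 genes was 0.21 for WT, 0.34 for Eμ-Myc and 0.87 for the knockout group, and over all genes it was 0.22, 0.22 and 0.39. Ifi35 and Eif2ak2 were the steadiest in the knockout group, at 90.4, 88.4, 89.1 and 88.6 and at 28.8, 24.9, 26 and 27.3.

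Myc and markers of several cell types moved with this order. Myc was 1099, 1718, 3017 and 3282 in knockout libraries 1 to 4, so the libraries with the lowest interferon-stimulated genes had the most Myc. The summed level of 9 T cell markers was 542, 600.4, 14.1 and 12.4 in the same libraries, that of 10 NK cell markers 715, 533, 27.4 and 25.7, and that of 12 myeloid markers 16673, 12166, 3155 and 1469. Mature B cell markers (9 genes) summed to 3301, 2955, 993 and 1083 and plasmacytoid dendritic cell markers (10 genes) to 795, 737, 481 and 494, while the 8 pan-B-cell markers stayed between 7188 and 7812. Single markers ran differently from these sums. Most of the plasmacytoid sum was Spib and Tcf4, which B cells also express, at 347, 369.8, 323 and 336 and at 153, 151, 122 and 122. Siglech, a surface receptor of plasmacytoid dendritic cells, had 17.7, 14.9, 0.999 and 0.333. Within the pan-B-cell sum, the inhibitory receptor gene Cd22 had 815, 795, 475 and 473. Immature B cell markers (10 genes) summed to 1024, 1129, 1719 and 1586, mostly through Vpreb3, at 802, 879, 1553 and 1427. Only Vpreb3, Sox4 and Igll1 of these 10 genes had libraries 1 and 2 both below 3 and 4, whereas Rag1 (22, 27.6, 8.44 and 10.2), Kit (29.7, 24.6, 5.99 and 5.1) and Il7r (84.9, 99.7, 7.66 and 5.99) had the reverse. Erythroid markers (10 genes) did not follow the order, with sums of 298, 229, 312 and 313. Platelet markers (5 genes) summed to 142, 41.5, 37.2 and 40.4, so library 1 alone stood apart. None of these marker genes was at 0 in all 12 libraries. In Eμ-Myc libraries 1 to 4, NK cell markers summed to 270, 307, 139.6 and 107 and myeloid markers to 10762, 17540, 7197 and 5995. Most of the myeloid sum was S100a8 (2241, 3930.1, 1580.2 and 1498) and S100a9 (5523, 9575, 3489 and 3228). Of the single myeloid markers, Adgre1, Csf1r, Cd68, Cd14 and Fcgr1 did not have Eμ-Myc libraries 1 and 2 both above 3 and 4, and the others did. Mature B cell (2451, 2010.2, 1802 and 1789.9), plasmacytoid dendritic cell (729, 689.8, 654 and 667) and platelet sums (150, 163, 117 and 73.9) also had libraries 1 and 2 above the others there. T cell (134, 119, 130 and 92.1), erythroid (354, 251, 728 and 509), pan-B-cell (8369, 9543, 7802 and 8895) and immature B cell sums (1406, 2099.9, 1464 and 1643) did not. Myc was 1822, 1559, 2302 and 1979 in Eμ-Myc libraries 1 to 4. The part of Myc and of these cells in the result was not tested.

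**Figure D5:**
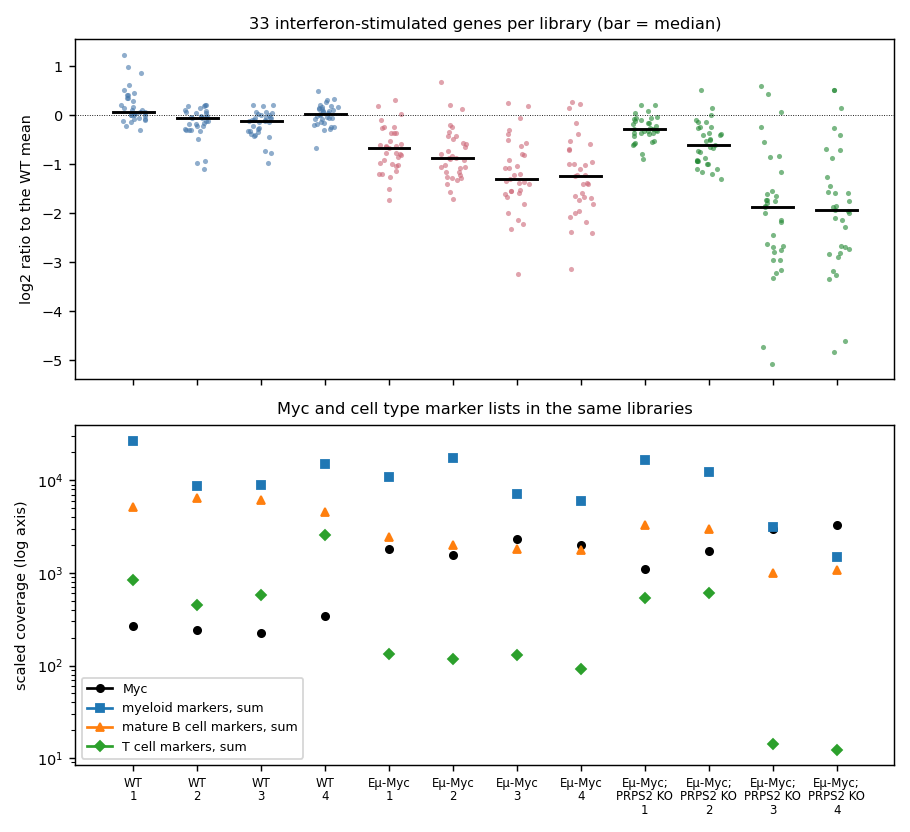
Top: log2 ratio to the WT mean of each of the 33 tested interferon-stimulated genes (points) in each library, with a bar at the median. Bottom: scaled coverage (log axis) of Myc and the summed coverage of myeloid, mature B cell and T cell markers in the same libraries; knockout libraries 3 and 4 have the lowest interferon-stimulated genes, the highest Myc (3017 and 3282) and the lowest marker sums.

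Marker lists also differed between Eμ-Myc and WT. T cell markers summed to 449 to 2599 in WT and 92.1 to 134 in Eμ-Myc (9 of 9 called lower), and NK cell markers to 425 to 1727 and 107 to 307 (10 of 10), where 24.7% of all genes were called lower and 30.4% higher. Plasmacytoid dendritic cell markers ran from 839 to 1278 and from 654 to 729 (7 of 10 lower), mature B cell markers from 4575 to 6515 and from 1789.9 to 2451 (8 of 9 lower). Immature B cell markers ran from 483 to 818 and from 1406 to 2099.9 (6 of 10 higher, 2 lower). Myeloid markers overlapped, at 8755 to 26853 and 5995 to 17540, with 0 of 12 called in limma and 0 at an unadjusted p under 0.05. Of the erythroid markers 0 of 10 (2 at an unadjusted p under 0.05), of the platelet markers 1 of 5 (lower) and of the pan-B-cell markers 1 of 8 (lower) were called. The part of the other cell types was not tested.

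The knockout group was also compared with WT, using the same WT libraries as the first comparison. Of the 33 genes 9 were called lower and 1 higher, where 29.3% of all 12692 genes were called, 9.6% lower and 19.7% higher. The median log2 fold change was -1.23, against -0.01 for all genes. The 9 were Irf9 (-1.12), Irf1 (-1.69), Ifit1 (-2.07), Ifit2 (-1.37), Ifit3 (-1.89), Oasl1 (-1.58), Isg15 (-1.69), Isg20 (-1.23) and Rtp4 (-1.34), and the gene that rose was Trim25, from 62.2 ± 6.76 to 83.7 ± 8.16 (0.43, SE 0.13, limma adjusted p 0.0431). Isg15 passed at the edge of the threshold, with an adjusted p that rounds to 0.05. The higher call of Trim25 was lost with total coverage scaling, with no filter and with the replicate block. It was also lost when any WT library or knockout library 2, 3 or 4 was left out. In 18 of the 33 genes all knockout libraries lay below all WT libraries (14.9% of all genes). Cell type markers moved in the same comparison: 5 of 9 mature B cell, 4 of 5 platelet, 2 of 10 plasmacytoid dendritic cell and 1 of 8 pan-B-cell markers were called lower, and 6 of 10 immature B cell markers higher. Of the 9 T cell markers 0 were called in limma (7 at an unadjusted p under 0.05, median log2 fold change -3.2), of the 10 NK cell markers 0 (3, -2.47), of the 12 myeloid markers 0 (0, -1.17) and of the 10 erythroid markers 0 (0, -0.04). Their part in the result was not tested.

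Zbp1, Oasl2 and Usp18 had the largest log2 fold changes outside the IFIT genes, at -2.83, -2.46 and -2.0, and were not called (limma adjusted p 0.0565, 0.111 and 0.0525). The calls in this comparison depended on single libraries. Leaving out WT library 1, 2, 3 or 4 turned the 10 calls into 1, 0, 0 and 1, and leaving out knockout library 1, 2, 3 or 4 turned them into 27, 18, 0 and 0. The calls over all genes moved with them, from 3716 to 883, 610, 600 and 1256 without a WT library and to 6633, 4134, 706 and 642 without a knockout library. The count was 5 with the replicate number as a block. Whether the knockout group differed from WT by another amount than Eμ-Myc did was tested by the direct comparison above, with 0 of 33 called.

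The rest of the pathway was read from lists of other genes. Of 21 interferon genes in the files 16 were at 0 in all 12 libraries, and Ifng, which encodes interferon gamma and is made mainly by T and NK cells, was the 1 gene that reached a scaled coverage of 1. Ifng held 15.9, 2.44, 2.54 and 38.1 in WT, 1.13 to 2.36 in Eμ-Myc, and 10.5, 8.92, 0.777 and 0.555 in the knockout libraries. Its log2 fold change of -1.84 in Eμ-Myc against WT was not called (limma adjusted p 0.0768).

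Receptors and kinases of the pathway were lower in Eμ-Myc in 9 of 10 genes tested, with a median log2 fold change of -0.96, where 24.7% of all genes were called lower and their median was -0.01. Jak1, a kinase used by all interferon receptors, fell by 1.31 (SE 0.15, limma adjusted p 8.8e-05), from 260.2 ± 43.3 to 105 ± 16.9. Ifnar1, a chain of the type I receptor, fell by 1.11, and Il10rb, a chain of the type III receptor, by 1.04. Against WT the knockout group had 4 of these 10 genes called lower, Il10rb, Ifngr2, Jak1 and Ifnar1, at -1.21, -1.18, -1.18 and -1.12, where 9.6% of all genes were called lower.

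Upstream sensing genes were mixed, with 10 of 22 lower and 1 higher in Eμ-Myc, against 24.7% and 30.4% of all genes. Ikbke, a kinase that activates the IRF factors, fell by 1.90, and Tlr9, the endosomal receptor for unmethylated DNA, by 1.43. Mb21d1, which encodes the cytosolic DNA sensor cGAS, rose by 1.38 (SE 0.28, limma adjusted p 0.00253), from 14.8, 5.34, 7.72 and 13 in WT to 24.8, 24.8, 27.4 and 24.8 in Eμ-Myc. It was therefore above every WT library in every Eμ-Myc library, opposite to the interferon-stimulated genes. In the knockout group against WT it was also called higher (1.37), and Tmem173, which encodes its adaptor STING, was the 1 gene of the list called lower (-1.09); of all genes 19.7% were called higher and 9.6% lower.

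Brakes of the pathway fell in 9 of 12 genes, against 24.7% of all genes. Socs3 and Socs1, which inhibit the JAK kinases, fell by 1.93 and 1.26, and the phosphatase gene Ptpn6 by 0.89. In the knockout group against WT, 2 of 12 were called lower, Ptpn6 (-1.09) and Trim24 (-0.54), where 9.6% of all genes were called lower.

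A wider list of other interferon-stimulated genes had 75 in the files. In Eμ-Myc against WT 53 of 74 tested were called lower and 3 higher, with a median log2 fold change of -1.01, against 24.7% lower, 30.4% higher and a median of -0.01 over all genes. Ifit1bl1, a copy related to Ifit1, fell by 2.28, and the guanylate-binding protein genes Gbp4 and Gbp9 by 2.23 and 2.09. The genes that rose, named after their values were seen, were Pnpt1 (0.80), Lgals9 (0.70) and Isg20l2 (0.44). PRPS2 loss within Eμ-Myc gave 0 calls of 73 tested in limma, with 1 at an unadjusted p under 0.05. Against WT the knockout group had 23 of 74 lower and 3 higher, against 9.6% and 19.7% of all genes. For the other 4 pathway lists PRPS2 loss within Eμ-Myc gave 0 calls too, with 0 tested genes at an unadjusted p under 0.05.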

How the data were processed

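Polyadenylated RNA of splenic B cells was made into directional libraries, per the labels' protocols, and 12 libraries in 3 groups of 4 were used. The authors deposited 1 file per library with a coverage signal per gene symbol, to 1 decimal; between 91.2% and 92.1% of values above 0 are not whole numbers, so edgeR and DESeq2 were not used here. The submitters' processing notes name mm10, DESeq and R 4.3.3, without their role; the aligner is not given in the sources used here. Depth is unknown, and precision was taken from the spread between libraries. The p-values set a difference between groups against the spread between these libraries, moderated over all genes tested.

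Coverage was scaled by unweighted trimmed means of log ratios (30% of ratios and 5% of means trimmed at each end). Genes at a scaled coverage of 1 or more in 4 or more of the 8 libraries of a comparison were tested with limma 3.58.1 (R 4.3.3; trended, robust empirical Bayes) on log2(scaled coverage + 0.5), 4 against 4, two-sided, with Benjamini-Hochberg adjustment over all genes tested; folds of low genes are understated on this scale. The method was tested on simulated data. Tables and figures used Python 3.11.15, numpy 2.4.6, pandas 2.3.3 and matplotlib 3.10.9. Promoters are RefSeq windows.

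Values per library are given for the 6 largest decreases among called genes with a mean of at least 8, the 4 transcription factors and the 3 smallest p for PRPS2 loss within Eμ-Myc; from each pathway list up to 3 called genes with the largest fold change and a mean of at least 8. Values of further genes were added after they were seen. Some genes of these lists are not reported here by name. The genes and lists were chosen with earlier results of these data known. The lists were interferon genes, receptors and kinases, upstream sensing, brakes, other interferon-stimulated genes, and markers of B, immature B, mature B, T, NK, myeloid, plasmacytoid dendritic, erythroid and platelet cells. Alternatives were 2 other scalings, pseudocounts of 0.1 and 2, no filter or a mean of at least 10, all 12 libraries in one fit, library quality weights, a replicate block, and leaving out each library.

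Replicate numbers were checked as pairs. In the knockout group and Eμ-Myc, same-numbered libraries deviated together from their group means (r of 0.657, 0.192, 0.253 and 0.607 across genes). The main fit had no block in any comparison, and the replicate block was an alternative setting. The best match had the same number for replicates 1 and 4, but number 1 for replicate 2 and number 4 for replicate 3. Replicates 2 and 3 were thus not matched by number, and this check comes from the values alone.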

Additional observations from a re-analysis of the deposited data

Results flagged for a closer look

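Of 102 groups of 4 libraries (34 genes in 3 genotypes) 3 held a library far from the others by Dixon's ratio at its 95% critical value, and chance flags about 1 group in 20. Oasl2 had 232 in WT library 1, against 50.2 to 61.6 in the other WT libraries. Myeloid markers summed to 26853 in the same library, against 8755, 8858 and 14983 in WT libraries 2 to 4. Most of that sum was S100a8 (5480) and S100a9 (13862). The other myeloid markers were also highest in WT library 1 among the WT libraries, except Adgre1 and Csf1r. The part of these markers was not tested. Trim25 had 52.1 in WT library 4, against 65 to 66.3. Parp9 had 49 in Eμ-Myc library 1, against 38.9 to 40.3.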

How the results depend on the processing

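In Eμ-Myc against WT 23 of the 28 called genes kept their call in each of 16 settings, and 12 did so when the fit of all 12 libraries was added; the count was 13 in that fit (5460 of all genes called, against 7016), 30 with library quality weights (29 lower and 1 higher; 8808 of all genes) and 23 to 29 when 1 library was left out. In the knockout group against Eμ-Myc the count of 0 became 26 with library quality weights, and was 0 under each other setting, the replicate block and each left-out library included. In the knockout group against WT the count of 10 (3716 of all 12692 genes called) became 4 with no filter (3082 of 17898), 24 with all 12 libraries in one fit (5975 of 12692), 32 with library quality weights (10505 of 12692) and 5 with the replicate block (1863 of 12692), and ran from 0 to 27 when 1 library was left out. In both comparisons with WT the replicate numbers did not pair the libraries (r from -0.0972 to 0.264 and from -0.423 to 0.398), and the block left 28 calls in the first. The direction of each gene against WT held under all settings except that of Eif2ak2. In Eμ-Myc against WT that gene had -0.04 with median-of-ratios scaling, -0.16 with total coverage scaling, -0.05 with library quality weights, and from -0.04 to 0.09 when 1 library was left out; in the knockout group against WT it had -0.04 with total coverage. Total coverage moved the median of all genes in Eμ-Myc against WT to -0.19 and that of the 33 genes to -1.19; of all called genes 42% were then higher, against 55.2%. The causes were not tested. The number of reads is unknown, so low genes such as Ifi44 cannot be given a detection limit.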
